A study of Mus musculus with 2 samples.

Results

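The mitochondrial genome transcripts were the 37 genes whose symbol starts with mt-, out of 43346 Ensembl gene rows of the deposited tables. They comprised 13 mRNAs, 2 rRNAs and 22 tRNAs, and all 37 were found in both libraries. Total RNA had been sequenced from megakaryocyte-erythroid progenitors (MEP), sorted bone marrow cells that give rise to red cells and megakaryocytes, of adult male mice (C57BL/6J, 5 to 6 weeks old), with no treatment named in the labels. The series holds 1 group of 2 libraries, biological replicates 1 and 2, each made with the ScriptSeq kit from 100 ng of rRNA-depleted RNA. Both biosamples carry the same donor entry, so the spread between the libraries may be technical, and no comparison between conditions was possible. Whether the depletion also aimed at mitochondrial rRNA was not given in the sources used here.

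The mitochondrial genome is a small circle that is read from both strands into long precursor RNAs. The tRNAs lie between the other genes like punctuation, and cutting the precursor at their ends frees the mRNAs and rRNAs, most of which then receive a poly(A) tail. All of the mRNAs encode subunits of the respiratory chain or of ATP synthase, while the rRNAs and tRNAs serve the ribosome inside the organelle. In the erythroid lineage mitochondria also house steps of heme synthesis, and they are removed as the red cell matures.

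Replicate 1 held 39919884 expected counts (estimated reads or fragments per gene, not normalized) and replicate 2 held 48043010. Of the marker genes listed for the cell type, the 8 erythroid and the 2 megakaryocyte genes reached a TPM of 1 (a level per length, scaled to the same total in each library) in both libraries, with a median TPM of 43.0 and 40.2 for the erythroid genes. Markers of other lineages were present too and differed between the libraries. The 4 neutrophil and monocyte genes all reached a TPM of 1 in both and summed to 62.5 in replicate 1 and 128 in replicate 2. Of the 4 lymphoid genes only Nkg7 did so, Cd3e had 0 counts in both libraries, and Gzma and Cd79a had 0 in replicate 1.

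The sequences shown next are stretches that 3 of 5 mRNAs with a counted nuclear copy share with it. A block of 7 annotated pseudogenes on chromosome 1 (mm10, chr1:24611535-24616197, minus strand) repeats part of the mitochondrial genome. For mt-Co2, mt-Atp6, mt-Co3 and mt-Nd4l the copy is identical over its whole length and lacks only the last 1 to 3 bases of the gene. The ends of mt-Co2 and mt-Nd4l are shown with the extra bases in capitals, at chrM:7657-7696 and chrM:10134-10173 on the plus strand. Their copies Gm28661 (chr1:24614885-24614921) and Gm10222 (chr1:24612407-24612443) lie on the minus strand. The copy of mt-Nd3 lacks the last 3 bases too and differs at 1 base, T3C, counted from 1 at the first base of mt-Nd3. That base is in capitals in the starts of mt-Nd3 (chrM:9459-9498, plus strand) and Gm28438 (chr1:24613080-24613119, minus strand). All sequences come from the GENCODE M21 transcripts, build GRCm38, written 5′ to 3′.
mt-Co2 end: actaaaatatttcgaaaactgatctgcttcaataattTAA
Gm28661 end: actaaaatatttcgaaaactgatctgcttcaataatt
mt-Nd4l end: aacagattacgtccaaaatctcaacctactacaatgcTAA
Gm10222 end: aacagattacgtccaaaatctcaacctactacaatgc
mt-Nd3 start: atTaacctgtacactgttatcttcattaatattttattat
Gm28438 start: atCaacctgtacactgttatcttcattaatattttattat

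Neighbouring mitochondrial genes also share bases with each other, which is shown with the shared bases in capitals. The last 43 bases of mt-Atp8 are the first 43 of mt-Atp6 (chrM:7912-7969), and the last 7 of mt-Nd4l are the first 7 of mt-Nd4 (chrM:10152-10173). The ends of mt-Nd5 and mt-Nd6, which lie on opposite strands, overlap by 14 bases.
mt-Atp8 overlap with mt-Atp6: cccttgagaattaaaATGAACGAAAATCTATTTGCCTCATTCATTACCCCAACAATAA
mt-Nd4l overlap with mt-Nd4: tctcaacctactacaATGCTAA

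Mitochondrial mRNA rows took 1.78% of all counts in replicate 1 (95% exact binomial interval 1.78 to 1.79) and 2.30% in replicate 2 (2.30 to 2.31), a mean of 2.04 ± 0.37 (SD, n = 2). The rRNA rows took 0.535% and 0.550%, and the tRNA rows held 0 counts. The intervals cover counting error only, and the libraries lay further apart than that. Rows of the nuclear copies of 5 mRNAs, described next, held a further 0.806% and 0.770%. With these added, the sum came to 2.59% and 3.07% of counts. These copies are identical or nearly so to the gene over their length. From which locus the reads of a pair came was not tested, so values with copies added are sums of both rows. In such bulk samples, fewer cells of a type and less RNA per cell cannot be told apart.

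Counts of 5 mRNAs lay mostly in the rows of their nuclear copies, except for mt-Nd3 in replicate 2. A search of the annotated transcripts with blastn (identity of at least 90% over at least 50% of either sequence) found 15 copies of 11 mitochondrial genes. Of these, 7 lay in the chromosome 1 block. Of the 15, only 5 held at least 1000 counts over both libraries, and these are the copies of mt-Co2, mt-Co3, mt-Atp6, mt-Nd3 and mt-Nd4l. Together the 5 mitochondrial rows held 12538 counts in replicate 1 and 68243 in replicate 2, beside 321718 and 370056 in the 5 copy rows.

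Gene mt-Co2, which encodes the subunit of cytochrome c oxidase that takes up electrons from cytochrome c, had 1267 counts in replicate 1 and 5200 in replicate 2, beside 104038 and 119713 for Gm28661. Its own row thus held 1.20% and 4.16% of the pair. For mt-Co3, another core subunit of that enzyme, the shares were 2.65% and 11.0%, and for mt-Atp6, the ATP synthase subunit of the proton path, 2.25% and 14.6%. In expected counts these rows were low in both libraries, although the shares themselves differed several-fold between them. In the authors' posterior mean counts the shares were higher and closer between the libraries. They were 25.0% and 23.3% for mt-Co2, 28.8% and 31.2% for mt-Co3, and 23.1% and 36.8% for mt-Atp6.

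The complex I subunit genes mt-Nd3 and mt-Nd4l were split unevenly and in opposite directions. For mt-Nd3 the mitochondrial row held 5674 counts in replicate 1 and 29946 in replicate 2, beside 24894 and 5273 for Gm28438. Its share of the pair was 18.6% in replicate 1 and 85.0% in replicate 2. For mt-Nd4l the row held 788 and 37.4 counts, beside 5032 and 13232 for Gm10222, shares of 13.5% and 0.282%. Which row of a pair was the larger thus depended on the library for mt-Nd3, while the nuclear copy was larger in both for the other 4 genes.

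**Figure D1:**
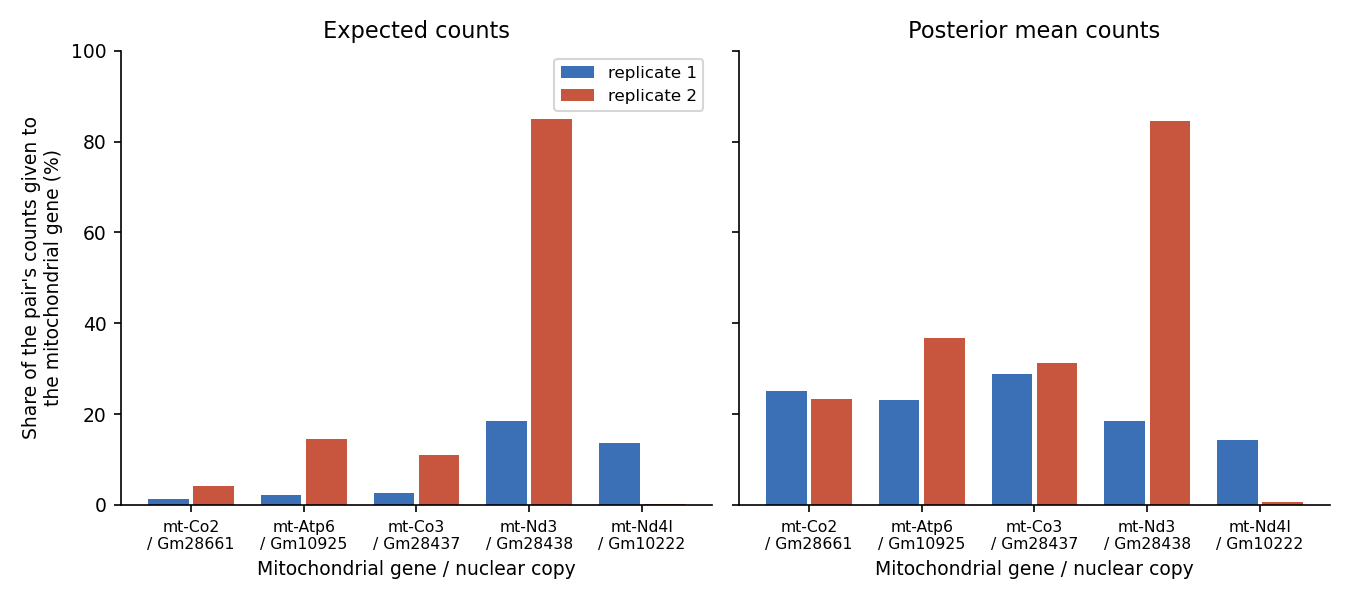
Share of the counts of each pair (mitochondrial gene and its nuclear copy) that the deposited tables gave to the mitochondrial gene, in percent, from expected counts (left) and posterior mean counts (right); each bar is 1 library. In expected counts mt-Co2, mt-Co3 and mt-Atp6 stay at or below 14.6%, while in posterior mean counts they stand between 23.1% and 36.8%. On the left mt-Nd3 stands at 18.6% in replicate 1 and 85.0% in replicate 2.

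The deposited estimates of these genes also differed from each other. Expected counts of the 5 genes were whole numbers, within 0.02, in 1 of 10 values. Summed with all copies of the gene, 10 of 10 were whole. The authors' posterior mean, a second estimate of the same count, put mt-Co2 at 26369 counts (replicate 1) and 29136 counts (replicate 2), or 20.8 and 5.60 times the expected count. For mt-Atp6 it was 10.2 and 2.52 times, and for mt-Co3 10.9 and 2.83 times the expected count. The posterior mean of mt-Nd3 was near its expected count, at 0.999 times in replicate 1 and 0.993 times in replicate 2. For mt-Nd4l it was 1.05 times the expected count in replicate 1 but 2.54 times in replicate 2, where it was 94.9 against 37.4 counts.

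Over all genes, only 0.201% of 12953 in replicate 1 and 0.171% of 12839 in replicate 2 differed by more than 2-fold between these estimates. Of the 15 mitochondrial genes with counts, 3 did so in replicate 1 and 4 in replicate 2. The authors' intervals of the posterior mean TPM (level not stated) were wide for mt-Co2, at 45.2 to 1957 in replicate 1 and 124 to 1258 in replicate 2. For mt-Co1 they were narrow, at 3929 to 3957 and 3945 to 3968.

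Other copies took almost no counts. Gm29216, in the same block, matches mt-Co1 at 99.8% identity over 483 of its 1545 bases, and held 34.4 and 328 counts beside 482136 and 708273 for mt-Co1. Gm28439 is identical to mt-Nd4 over 876 of its 1378 bases, and held 0 and 12.7 counts beside 37766 and 61045. Gm13340 on chromosome 2 covers all of mt-Co1 at 97.6% identity and had 21.5 and 14.1 counts. Copies of mt-Nd5, mt-Nd6 and mt-Cytb on chromosomes 4 and 13 had 0 counts in both libraries. Genes mt-Nd1 and mt-Atp8 were the 2 mRNAs for which no annotated copy was found, so no copy row stood beside theirs. The search covered annotated transcripts only, so a copy that is not annotated would be missed.

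Complex IV mRNAs led the mitochondrial mRNAs in counts. With the copies added, the 3 cytochrome c oxidase genes held 68.4% of mitochondrial mRNA counts in replicate 1 and 67.1% in replicate 2. The 7 complex I genes held 17.9% and 19.1%, the 2 ATP synthase genes of complex V 9.51% and 9.22%, and mt-Cytb of complex III 4.12% and 4.63%. The order of the complexes in counts was the same in both libraries. In TPM with copies, complex V came first instead, with sums of 12893 in replicate 1 and 10293 in replicate 2, against 8861 and 8124 for complex IV. Most of the complex V sum was mt-Atp8, whose short effective length is described with its values.

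Gene mt-Co1, which encodes the catalytic subunit of cytochrome c oxidase (ENSMUSG00000064351, chrM:5328-6872), was the highest in counts and in counts per kb. It had 482136 counts in replicate 1 and 708273 in replicate 2, rank 3 and rank 2 of all Ensembl rows by counts. Its TPM was 3995 and 3993, and its counts per kb of gene were 312062 and 458429. Counts per kb are not scaled for library size, so they are compared between genes within a library. The nearest mRNA per kb was mt-Co2 with its copy in replicate 1, at 153955, and mt-Co3 with its copy in replicate 2, at 199690. The lowest heavy-strand mRNA with copies added, mt-Nd5, was exceeded by 20.6-fold and 20.4-fold.

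Genes mt-Co2 and mt-Co3 came next, but only with the copies added, at 153955 and 153143 counts per kb in replicate 1 and 182621 and 199690 in replicate 2. Their order differed between the libraries, so they are not separated. On their own rows they stood at 1852 and 4051 counts per kb in replicate 1 and at 7602 and 21983 in replicate 2, below most other mRNAs. By TPM of its own row mt-Co2 ranked 1422 among protein-coding genes in replicate 1 and 352 in replicate 2. Its TPM of 57.3 ± 38.4 became 2280 ± 337 (SD, n = 2) with Gm28661 added.

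The ATP synthase genes mt-Atp8 and mt-Atp6 come from a shared mRNA with overlapping reading frames. Gene mt-Atp8 had 126436 counts per kb in replicate 1 and 135912 in replicate 2, and mt-Atp6 with its copy had 106460 and 159093. Their order reversed between the libraries and they are not separated. In TPM, however, mt-Atp8 ranked first of all protein-coding genes in both libraries, at 11148 and 8512. It is the shortest of the mRNAs at 204 bases, and its effective length, the number of positions left for a fragment to start, was 25.3 and 24.2 bases. On that scale it exceeded mt-Co1 by 2.79-fold and 2.13-fold, while in counts per kb mt-Co1 exceeded it by 2.47-fold and 3.37-fold. The order of these genes therefore depends on which length is used.

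The complex I and III genes lay lower in counts per kb. Gene mt-Nd3 with its copy had 87839 and 101204 counts per kb, mt-Nd1 had 58456 and 94834, and mt-Cytb, the core subunit of complex III that oxidizes ubiquinol, 37199 and 59742. These held the same places in the order in both libraries. Below them, mt-Nd4, mt-Nd2 and mt-Nd4l with its copy lay between 19596 and 27406 in replicate 1 and between 36560 and 44677 in replicate 2, in a different order in each. With copies added, the complex I subunit gene mt-Nd5 was the lowest of the 12 heavy-strand mRNAs in both, at 15122 and 22524. On own rows mt-Co2, mt-Co3 and mt-Nd4l were lower than mt-Nd5 in both. In all, 6 of 13 mRNAs held the same rank per kb with copies in both libraries. On the TPM scale with copies, mt-Nd3 instead lay near mt-Co2, at 2576 and 2015 against 2518 and 2041. There mt-Nd4l, at 740 and 1170, was above mt-Cytb, at 506 and 554. The place of these short genes thus also depends on which length is used. Along the genome, counts per kb with copies had a Spearman rho with gene order of -0.47 in replicate 1 and -0.40 in replicate 2. This is a description across 12 genes that share a library and differ in length.

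**Figure D2:**
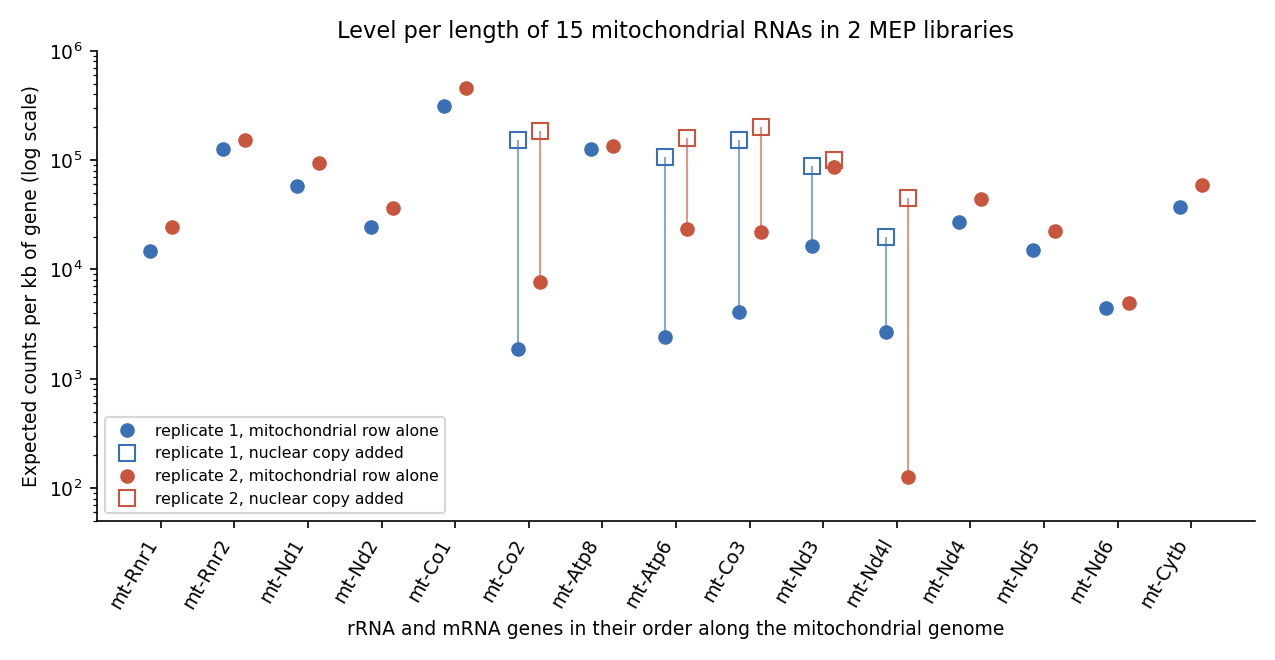
Expected counts per kb of gene length (log scale, not scaled for library size) for the 2 rRNAs and 13 mRNAs in genome order, each point 1 library; open squares add the counts of the nuclear copy for 5 genes. Gene mt-Co1 is highest at 312062 and 458429, and mt-Co2 moves to 153955 and 182621 with its copy, from 1852 and 7602 on its own row.

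The light-strand mRNA was the lowest per kb in both libraries once the nuclear copies were added to the other mRNAs. Gene mt-Nd6, a complex I subunit and the only mRNA read from that strand (chrM:13552-14070, minus strand), had 2280 counts in replicate 1 and 2534 in replicate 2, or 4393 and 4882 per kb. Its TPM was 74.2 ± 14.2 (SD, n = 2). The median of the heavy-strand mRNAs with copies was 16.7-fold higher in replicate 1 and 20.1-fold higher in replicate 2, and mt-Co1 was 71.0-fold and 93.9-fold higher. On own rows alone, mt-Nd6 was above mt-Co2, mt-Atp6, mt-Co3 and mt-Nd4l per kb in replicate 1 and above mt-Nd4l in replicate 2. It was then below the heavy-strand median by a log2 ratio of -2.21 in replicate 1 and -3.05 in replicate 2. Signal tracks were made per strand, per the text files deposited with the tables. Whether the counting used strand was not given in the sources used here, and without strand RNA of the opposite strand could not be told apart from mt-Nd6.

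The rRNAs were unequal after depletion. Gene mt-Rnr2, the large ribosomal subunit RNA (chrM:1094-2675), had 199687 counts in replicate 1 and 240713 in replicate 2, against 13977 and 23481 for mt-Rnr1, the small subunit RNA (chrM:70-1024). Per kb the values were 126224 and 152157 for mt-Rnr2, and 14636 and 24587 for mt-Rnr1. The ratio of the larger to the smaller RNA was 8.62-fold in replicate 1 and 6.19-fold in replicate 2, a log2 ratio of 2.87 ± 0.34 (SD, n = 2). Both are read from the same strand, with only the tRNA gene mt-Tv between them. Gene mt-Co1 exceeded mt-Rnr2 by 2.47-fold and 3.01-fold per kb. These values are what remained in libraries depleted of rRNA, and the cells' own rRNA level was not measured.

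The tRNAs could not be counted in these tables. All 22, of 59 to 75 bases, had 0 counts and an effective length of 0 in both libraries. This includes the 14 tRNAs on the plus strand and the 8 on the minus strand (mt-Tq, mt-Ta, mt-Tn, mt-Tc, mt-Ty, mt-Ts1, mt-Te and mt-Tp), which carry amino acids to the organelle's ribosome. Of 888 Ensembl genes no longer than 75 bases, 0 had a count. Of all Ensembl rows with an effective length of 0, 19 of 3709 in replicate 1 and 29 of 3808 in replicate 2 had a count. The longest gene with an effective length of 0 had 112 bases in replicate 1 and 115 in replicate 2, and the size range in the labels was 200 to 1000 and 215 to 1000 (unit not stated). A count of 0 here is therefore no measure of tRNA in the cells. The shortest tRNA, mt-Ts2 for serine (chrM:11613-11671), and the longest, mt-Tl1 for leucine (chrM:2676-2750), both on the plus strand, show how little sequence a fragment would have to fit into.
mt-Ts2: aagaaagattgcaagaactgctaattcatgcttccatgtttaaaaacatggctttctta
mt-Tl1: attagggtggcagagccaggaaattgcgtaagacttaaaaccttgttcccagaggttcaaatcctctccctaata

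**Figure D3:**
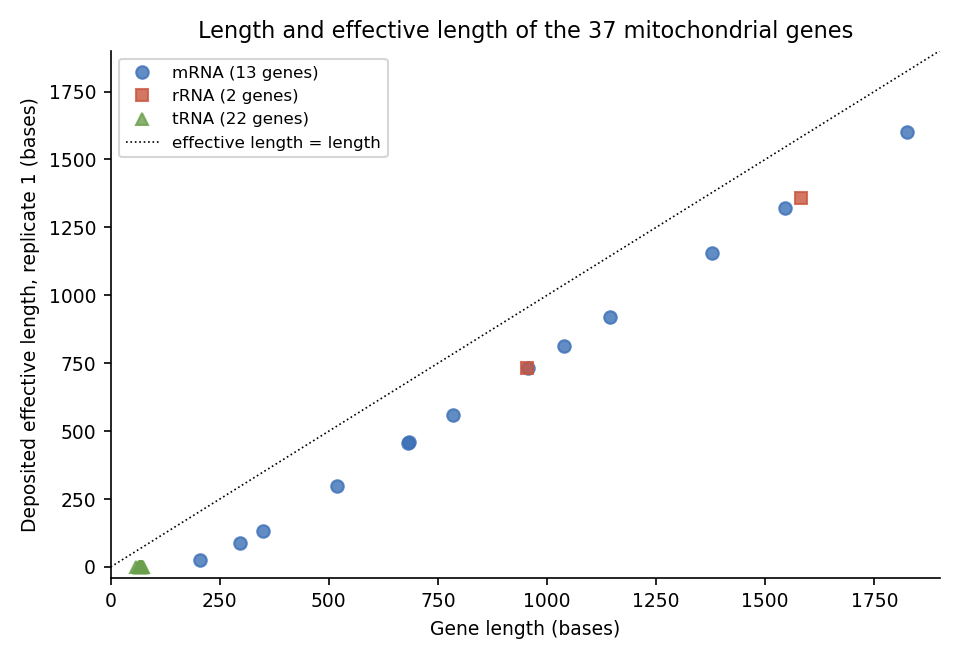
Effective length in replicate 1 against gene length, both in bases, for the 37 mitochondrial genes, each point 1 gene; the dotted line marks equal values. All 22 tRNAs sit at 0, and mt-Atp8, at 204 bases, keeps 25.3.

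Between the libraries, only the 5 genes with shared copies moved past 2-fold. Ratios are of replicate 2 over replicate 1 in counts scaled by TMM (a scaling that sets the bulk of genes at no change), for the 15 mitochondrial genes with at least 20 counts. No p-value exists for a pair of libraries. On their own rows 4 genes were higher past 2-fold, beside 12.4% of 14071 genes of the whole table. They were mt-Atp6 at a log2 ratio of 3.06, mt-Co3 at 2.22, mt-Nd3 at 2.18 and mt-Co2 at 1.82. In the other direction mt-Nd4l was at -4.60, beside 14.7% of genes that were lower past 2-fold. In either direction 27.1% of genes passed, but only 3.04% of the 6291 genes with at least 2000 counts.

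With the copies added, 0 of the 15 passed 2-fold. The log2 ratio became 0.36 for mt-Atp6, 0.17 for mt-Co3, 0.03 for mt-Co2 and -0.01 for mt-Nd3. For mt-Nd4l it became 0.97, with 5820 counts in replicate 1 and 13269 in replicate 2, just inside the threshold. The other 8 mRNAs, whose counts hardly shared an annotated copy, lay between -0.11 for mt-Atp8 and 0.48 for mt-Nd1, and 6 of the 8 were above 0. Over the 13 mRNAs the median log2 ratio was 0.47 on own rows and 0.36 with copies, against -0.0031 over all genes tested. For the rRNAs the log2 ratio was 0.53 for mt-Rnr1 and 0.05 for mt-Rnr2, so they moved unequally. In TPM the values were 0.20 for mt-Rnr1 and -0.29 for mt-Rnr2, beside a median of -0.26 over protein-coding genes.

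On the TPM scale the median of the protein-coding genes was itself at -0.26, against 0.01 in TMM-scaled counts, and mt-Co1 had nearly equal TPM in both libraries while its TMM ratio was 0.34. Marker genes moved between the libraries as well. Among them, 7 of 8 erythroid genes were above 0 with a median log2 ratio of 0.39, both late globin genes were higher at 3.54 for Hbb-bs and 2.05 for Hba-a1, and both megakaryocyte genes were lower at -1.28 for Itga2b and -1.10 for Pf4. The 4 neutrophil and monocyte genes were all higher, with a median of 1.38, and the mast cell gene Cpa3 was lower at -1.81. Of the lymphoid genes, Gzma and Cd79a had counts only in replicate 2, at 792 and 157, and Nkg7 was at -0.15. The part of these marker genes in the mitochondrial values was not tested.

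**Figure D4:**
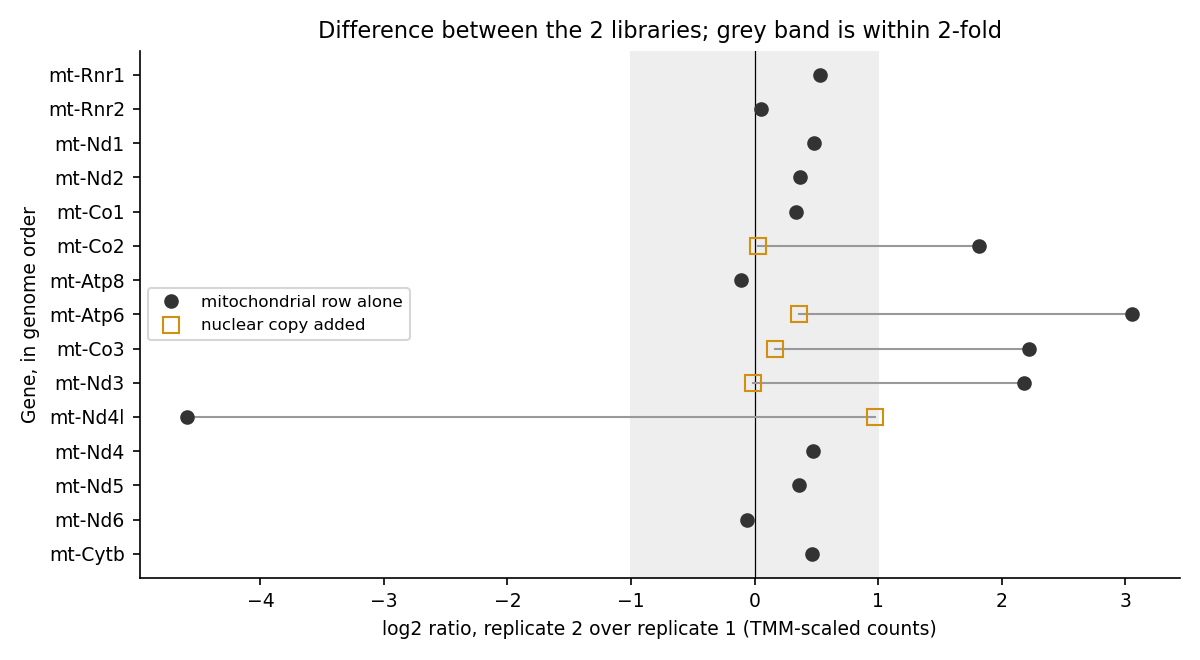
Log2 ratio of replicate 2 over replicate 1 in TMM-scaled counts for the 15 mitochondrial rRNAs and mRNAs, each row 1 gene; filled circles use the mitochondrial row alone and open squares add the nuclear copy for 5 genes. The grey band is within 2-fold: the 5 circles outside it range from -4.60 to 3.06, and every square is inside it.

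Nuclear genes for the upkeep of the mitochondrial genome had median TPMs of 5.74 for transcription, 6.44 for replication, 9.22 for RNA processing and 23.7 for mRNA stability and decay. Of 10 genes of mitochondrial transcription, 9 reached a TPM of 1 in both libraries, led by Tfam, the factor that packages the genome and starts transcription, at 44.5 ± 8.98, and Mrpl12, a ribosomal protein that binds the polymerase, at 40.8 ± 0.78 (SD, n = 2). The exception was Mterf1b at 0.59 ± 0.25, whose reads may be divided with its close paralog Mterf1a. The RNA polymerase gene Polrmt was at 4.74 ± 1.30. All 7 genes of genome replication reached a TPM of 1, led by the single-strand binding protein gene Ssbp1 at 26.5 ± 6.48 and the polymerase gene Polg at 11.0 ± 3.06.

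All 13 RNA processing genes reached a TPM of 1 as well. The highest were Hsd17b10, a subunit of the enzyme that cuts tRNA 5′ ends, at 27.1 ± 5.10, and the RNA granule protein gene Grsf1 at 25.7 ± 3.41 (SD, n = 2). The catalytic subunit Prorp, named 1110008L16Rik in the annotation, was at 10.7 ± 2.84, and Elac2, which cuts tRNA 3′ ends, at 13.1 ± 0.31. Of the 6 genes of mRNA stability and decay, all 6 passed, with the exonuclease gene Rexo2 at 77.1 ± 3.34 and Lrpprc, which holds mitochondrial mRNAs stable, at 27.8 ± 4.23. Across these 36 genes, only Mterf1b and Tbrg4 differed by more than 2-fold between the libraries, with log2 ratios of 1.26 and 1.12, beside 27.1% of 14071 genes of the whole table and 3.04% of those with at least 2000 counts.

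With copies added, the mitochondrial mRNAs had higher median TPM in each complex than the nuclear-encoded partners. The median was 376 for the 7 mitochondrial mRNAs of complex I and 60.6 for 7 nuclear core subunit genes. For complex III mt-Cytb was at 530, against a median of 50.2 for 4 nuclear genes, and for complex IV the medians were 2280 and 117 for 3 mitochondrial and 9 nuclear genes. For complex V they were 5796 and 107 for 2 mitochondrial and 8 nuclear genes, where the mitochondrial value rests on the short effective length of mt-Atp8. On own rows the middle of the 3 complex IV genes was mt-Co3, at 62.0 in replicate 1 and 230 in replicate 2. The nuclear median was 143 and 116, so the mitochondrial median was lower in replicate 1 and higher in replicate 2. With copies added, the ranges overlapped in complex I. There the mitochondrial mRNAs ran from 74.2 for mt-Nd6 to 2295 for mt-Nd3 with its copy, and the nuclear genes from 5.54 to 75.6. On own rows, mt-Co2 at a mean TPM of 57.3 and mt-Co3 at 146 lay within the nuclear range of complex IV, 18.7 to 298. Gene mt-Atp6 on its own row, at 149, lay within the nuclear range of complex V, 9.22 to 838.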

How the data were processed

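The authors' deposited gene tables give, for each of 2 libraries, expected counts (estimated, not whole where genes share reads), TPM and FPKM, with posterior mean versions, made on mm10 with GENCODE M4 according to the accompanying text files. What program quantified them was not given in the sources used here. Replicates were not pooled. Gene IDs without version were matched to GENCODE M21 (same assembly), and 42462 of 43346 had a symbol. The members and lists were chosen with earlier results of these data known. Values per kb are expected counts over annotated gene length.

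Between-library ratios used edgeR 4.0.16 TMM factors on genes with at least 20 counts, with a pseudocount of 0.5 on scaled counts. DESeq2 1.42.0 size factors, on rounded counts, were an alternative. Scaling was also run on simulated counts with counting error only and a known change in few genes. That setting is simpler than these libraries, so it is no check of the scaling here. Nuclear copies were sought among the GENCODE M21 transcripts, not in the whole genome, with blastn 2.17.0. Adding their counts was chosen after the data were seen. Transcript tables held the same counts for all 37 genes. By rule, all 37 genes, the 2 highest of each list of upkeep genes and the 5 copies with the most counts are named. Polrmt, Prorp, Elac2, Mterf1a, Mterf1b, Tbrg4 and the other copies lie outside that rule and were chosen after their values were seen. For the subunit lists the rule gives medians and ranges. Other steps used R 4.3.3, Python 3.11.15, pandas 2.3.3, numpy 2.4.6, scipy 1.17.1 and matplotlib 3.10.9.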

Additional observations from a re-analysis of the deposited data

How the results depend on the processing

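Adding the nuclear copies, chosen after the data were seen, moved the mitochondrial mRNA share of counts to 2.83%, the log2 ratio of mt-Nd6 to the heavy-strand median from -2.63 to -4.19, the median log2 ratio between replicates from 0.47 to 0.36, and the number of genes past 2-fold from 5 to 0. Posterior mean counts gave -3.24 for mt-Nd6, 0.36 for the median ratio and 3 genes. Posterior mean TPM gave 0.024 and 2 genes, TPM a median of 0.13, CPM over all rows 0.42, and TMM without a filter on low counts 0.47. The rRNA share, 0.543% of counts, was 0.613% of counts of nuclear protein-coding and mitochondrial genes, 0.169% of TPM and 0.167% of posterior mean TPM.

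Of 120 recomputed ratios over 15 genes, 8 had another sign than the reported one. Within 2-fold these were mt-Rnr2 at -0.29 in TPM and -0.28 in posterior mean TPM. Also within 2-fold was mt-Co1 at -0.00046 in TPM, where the median of protein-coding genes was -0.26, against 0.01 in TMM-scaled counts. The other 5 were of genes past 2-fold: mt-Co2 at -0.40 with posterior mean TPM and -0.072 with posterior mean counts, mt-Co3 at -0.0498 with posterior mean TPM, and with copies added mt-Nd3 at -0.0125 and mt-Nd4l at 0.97. With copies added the ratio is of the sum of a pair, whichever way its counts were divided. For mt-Nd4l that sum was 5820 in replicate 1 and 13269 in replicate 2. The cause of these turns, with copies or with posterior means, was not tested. With 1 library at a time the mRNA share was 1.78% to 2.30%, the rRNA share 0.535% to 0.550%, the log2 ratio of the rRNAs 2.63 to 3.11 and that of mt-Nd6 -3.05 to -2.21. The tRNA ratio between replicates could not be computed, since all counts were 0. No paired analysis was possible because there is 1 group.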
